A study of Macaca mulatta with 8 samples.

Results

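PARP9, DTX3L, PARP10, PARP12, PARP14 and PARP1 were followed across the cell classes of the macaque retina after subretinal gene therapy. These 6 genes were taken by symbol from the 26533 features of the count tables. The symbols of 5 were in the files, and PARP10, whose row carries only the Ensembl identifier ENSMMUG00000059569, was matched through a gene table, so all 6 were measured. Droplet-based single-cell RNA sequencing from the 5-prime end covered 8 retinal libraries from 2 wild-type male rhesus macaques. NHP1 (5 years) gave 1 library per eye from retina labelled uninjected, and by the study's methods both of its eyes had received AAV2-CAG-hRPE65. NHP2 (6 years) gave, from each eye, an uninjected area, a bleb treated with AAV8-GRK1-hRPGR and a bleb treated with AAV8-GRK1-mScarlet, where a bleb is a pocket that the injected fluid raises under the retina and GRK1 is a photoreceptor promoter. By the study's methods, all eyes had vitrectomy and triamcinolone around the globe, and the left eyes also received repeated intravitreal adalimumab, an antibody against TNF-alpha. Eye and drug therefore cannot be told apart, the mScarlet vector was of laboratory grade and given at a lower dose than the engineering-grade hRPGR vector, and the 6 NHP2 libraries describe areas of 1 animal without replicate animals.

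ADP-ribosyltransferases of the PARP family move ADP-ribose from NAD+ to proteins or nucleic acids. PARP1 is the constitutive nuclear member, which binds DNA breaks and builds poly(ADP-ribose) chains that recruit repair factors. PARP9, PARP10, PARP12 and PARP14 are known as interferon-stimulated genes. PARP9 and PARP14 carry macrodomains that read or remove ADP-ribose, PARP10 and PARP14 transfer single ADP-ribose units, and PARP12 carries zinc fingers and acts at Golgi and stress-granule sites. DTX3L is a RING-type ubiquitin ligase of the deltex family and forms a stable complex with PARP9, which acts in DNA damage signalling and in antiviral responses.

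In the RefSeq annotation of Mmul_10, the build that the deposited counts also used with another annotation, 3 of the genes lie close together on chromosome 2. PARP9 spans chr2:153752257-153789491 on the plus strand and DTX3L chr2:153742116-153799152 on the minus strand, while PARP14 spans chr2:153587993-153638739 on the minus strand. The annotated span of DTX3L contains that of PARP9. In the transcript taken for each gene, the start sites point in opposite directions and the first stretches share 105 bases, so UMIs that fall in shared exons can be assigned only by strand. PARP12 lies at chr3:166442121-166482743, PARP10 at chr8:144247403-144256453 and PARP1 at chr1:83925067-83972085, all on the minus strand. Counts are per gene and do not resolve exons.

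The windows from 250 bases before to 50 bases after each start site were searched on both strands for the core of the interferon-stimulated response element, GAAANNGAAA, and for the palindromic gamma-activated site, TTCNNNGAA. Matches are shown because the levels of PARP9, DTX3L and PARP14 resembled each other across cell classes. The first line is a match 6 bases after the PARP9 start, inside the stretch that PARP9 and DTX3L share (chr2:153752963-153752992, minus strand). The other lines are neighbouring matches upstream of the PARP14 start, at chr2:153638755-153638784 (minus strand) and chr2:153638767-153638795 (plus strand), which overlap in the bases printed but not in the motif. Capitals mark the motif.
PARP9 response element: ccggggaagcGAAACTGAAActttgcgcct
PARP14 response element: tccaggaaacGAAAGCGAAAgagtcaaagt
PARP14 activated site: tcgctttcgtTTCCTGGAAaactcccagg
Of 20972 start-site windows of coding genes, 3.58% held the response-element core, 7.0% the activated site and 0.40% both, as the PARP14 window did. The windows of PARP1, PARP10 and PARP12, and that of DTX3L upstream of its own start, held neither string. A match is a string of letters and not a measured binding site.

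Of 91796 barcodes that passed the filters on cells, 9.37% were removed as doublets and 56857 of the remaining 83192 fell in clusters that could be named from marker genes. The libraries held between 90634306 and 146519011 UMIs, with a median of 4606 to 6036 UMIs per cell, and shared between 1.39% and 2.16% of their cell barcodes pairwise. All of the rod, Müller, bipolar, myeloid and other class markers found in the files were higher in their own class than in the others. The same markers had named the clusters, so this is not an independent check. The rod-like class rested on different clusters in different areas (cluster 48 held 66.6% of it in the uninjected areas, cluster 51 held 24.9% in the hRPGR blebs and cluster 56 held 35.7% in the mScarlet blebs), and the members took no part in the clustering. The Müller glia-like class was led by cluster 13 in the uninjected areas (39.7%) and by cluster 26 in the blebs (34.0% for hRPGR and 50.6% for mScarlet). The right uninjected area of NHP2 held 5018 coRPGR UMIs in its rod-like cells, 156 CPM, against 3847 CPM and 1414 CPM in the right and left hRPGR blebs and 0 UMIs in the left uninjected area. The left library of NHP1, although labelled uninjected, held 16197 huRPE65 UMIs (614 CPM) in rod-like cells, against 1 UMI in the right one. CPM is the standard scaling in which the UMIs of a gene are divided by all UMIs of its class in a library and set to a common total, and intervals are exact 95% Poisson intervals, which cover counting error only.

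PARP14, PARP9 and DTX3L were highest in the immune classes and in Müller glia-like cells, and lowest in neurons. Over the 6 NHP2 libraries, PARP14 averaged 174 ± 41.6 CPM (SD, n = 6) in myeloid-like cells, which hold microglia and macrophages, 135 ± 39.2 CPM in T/NK-like cells and 59.0 ± 32.2 CPM in Müller glia-like cells. Its neuronal levels ran from 27.1 ± 13.5 CPM in bipolar-like and 18.1 ± 13.4 CPM in horizontal-like cells down to 6.34 ± 6.76 CPM in cone-like, 6.33 ± 7.51 CPM in rod-like and 5.97 ± 5.93 CPM in amacrine-like cells. Each class in this order overlapped with the next one in its range over libraries. PARP9 and DTX3L were also highest in myeloid-like cells, at 59.2 ± 13.5 CPM and 72.8 ± 17.4 CPM, stood at 1.54 ± 1.63 CPM and 2.0 ± 2.24 CPM in rod-like cells, and were lowest in ganglion-like cells. PARP10 was placed differently: it averaged 53.1 ± 28.8 CPM in Müller glia-like cells and 19.8 ± 5.27 CPM in myeloid-like cells, although these ranges overlapped as well. PARP12 was the antiviral member with a comparatively high cone level, with 47.8 ± 14.1 CPM in T/NK-like, 20.8 ± 8.61 CPM in Müller glia-like and 20.5 ± 10.9 CPM in cone-like cells. PARP1 ran the other way. It was highest in cone-like cells at 322 ± 23.9 CPM, followed by rod-like cells at 142 ± 8.76 CPM, and in both steps the ranges over the 6 libraries did not overlap with the class below. Of the 9 classes ordered, myeloid-like cells had the lowest PARP1 level, 52.7 ± 10.3 CPM. RPE-like cells, at most 50 per NHP2 library and missing from 1, were left out of the order.

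**Figure D1:**
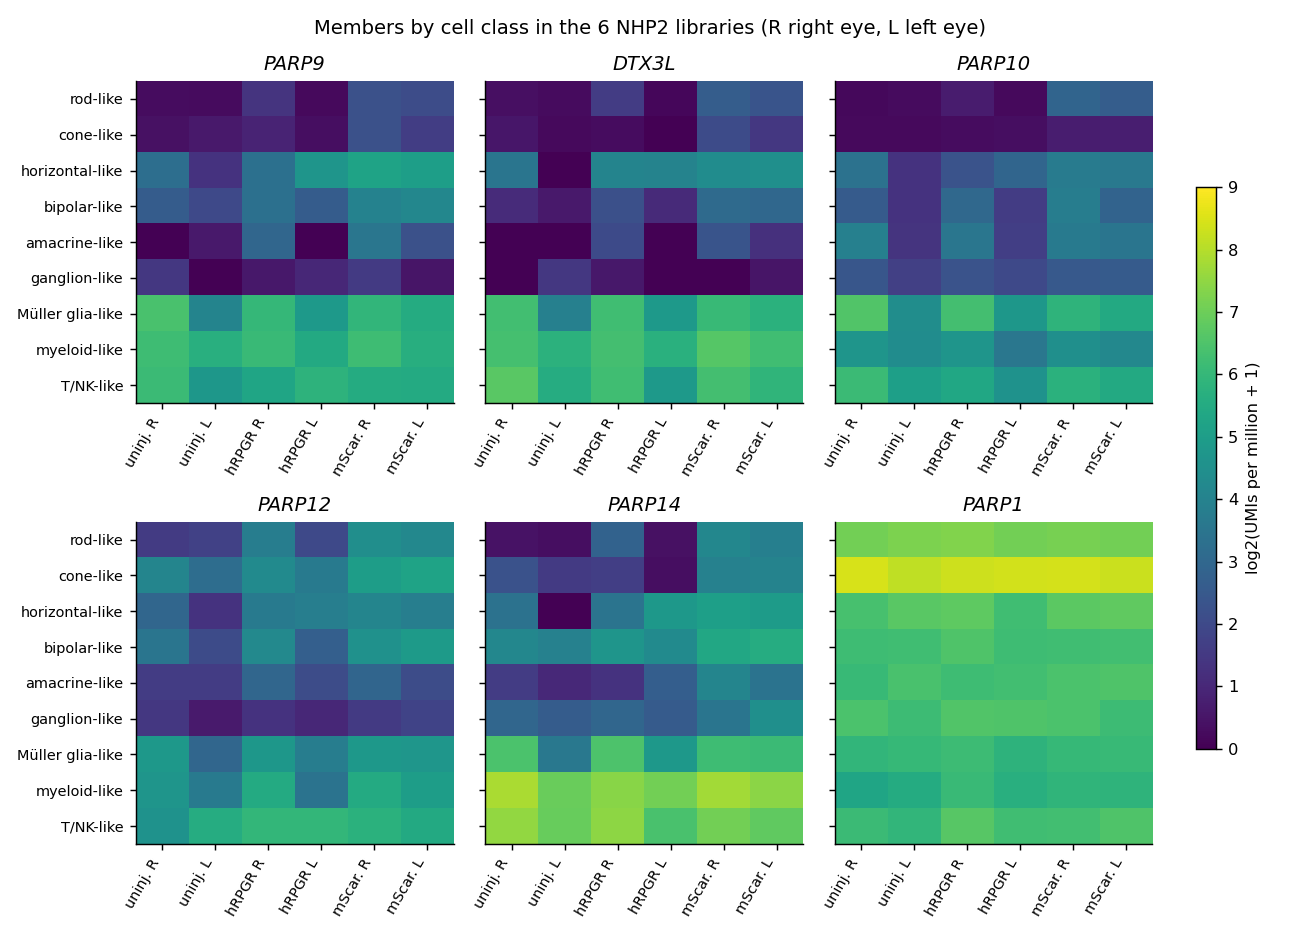
Level of each member in 9 cell classes (rows) and the 6 NHP2 libraries (columns, right and left eye), as log2(CPM + 1) on 1 colour scale. PARP9, DTX3L and PARP14 are bright in the glial and immune rows, the rod-like and bipolar-like rows of the antiviral members are mostly brighter in the 2 mScarlet columns than in the uninjected ones, and PARP1 is brightest in the cone-like row in all 6 columns.

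In rod-like cells PARP9, DTX3L, PARP10 and PARP14 had 5 to 11 UMIs and PARP12 had 64 and 56 UMIs in the uninjected areas, and all 5 had more than 100 UMIs in each mScarlet bleb. PARP14 stood at 0.342 CPM (0.171 to 0.611) in the right uninjected area and 0.254 CPM (0.0934 to 0.554) in the left one, which is 11 and 6 UMIs. In the mScarlet blebs it stood at 17.1 CPM (15.7 to 18.6) in the right eye and 13.9 CPM (12.7 to 15.2) in the left, from 535 and 482 UMIs. The hRPGR blebs split by eye, with 6.07 CPM (5.20 to 7.03) in the right eye and 0.322 CPM (0.147 to 0.611) in the left. Thus the left hRPGR bleb lay with the uninjected areas, and the right one between them and the mScarlet blebs.

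The same split held for PARP12, whose zinc-finger protein is an antiviral effector. It read 1.99 CPM and 2.37 CPM in the right and left uninjected areas, 13.0 CPM and 2.93 CPM in the hRPGR blebs, and 20.9 CPM and 17.5 CPM in the mScarlet blebs. The obligate partners PARP9 and DTX3L followed. PARP9 read 0.217 and 0.212 CPM (uninjected, right and left), 1.56 and 0.179 CPM (hRPGR), and 3.73 and 3.31 CPM (mScarlet). DTX3L read 0.279 and 0.212 CPM, 2.01 and 0.107 CPM, and 5.33 and 4.06 CPM in the same order. PARP10 split in the same way: it read 0.155 and 0.212 CPM in the uninjected areas, 0.624 and 0.179 CPM in the hRPGR blebs (18 and 5 UMIs), and 6.38 and 5.27 CPM in the mScarlet blebs. For PARP12 and PARP14 both mScarlet libraries lay above the other 4 NHP2 libraries, as they did for 21.2% of all genes tested in rod-like cells. PARP9, DTX3L and PARP10 had the same order but passed the filter on low counts through the mScarlet blebs. They are therefore not set against this share. Within an eye, the mScarlet bleb exceeded the uninjected area by a ratio of 41.1 (right) and 24.9 (left) for PARP10, 19.1 and 19.2 for DTX3L, 17.2 and 15.6 for PARP9, and 10.5 and 7.38 for PARP12. The PARP14 ratio was the highest of the 5 in both eyes, at 54.6 in the left one.

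**Figure D2:**
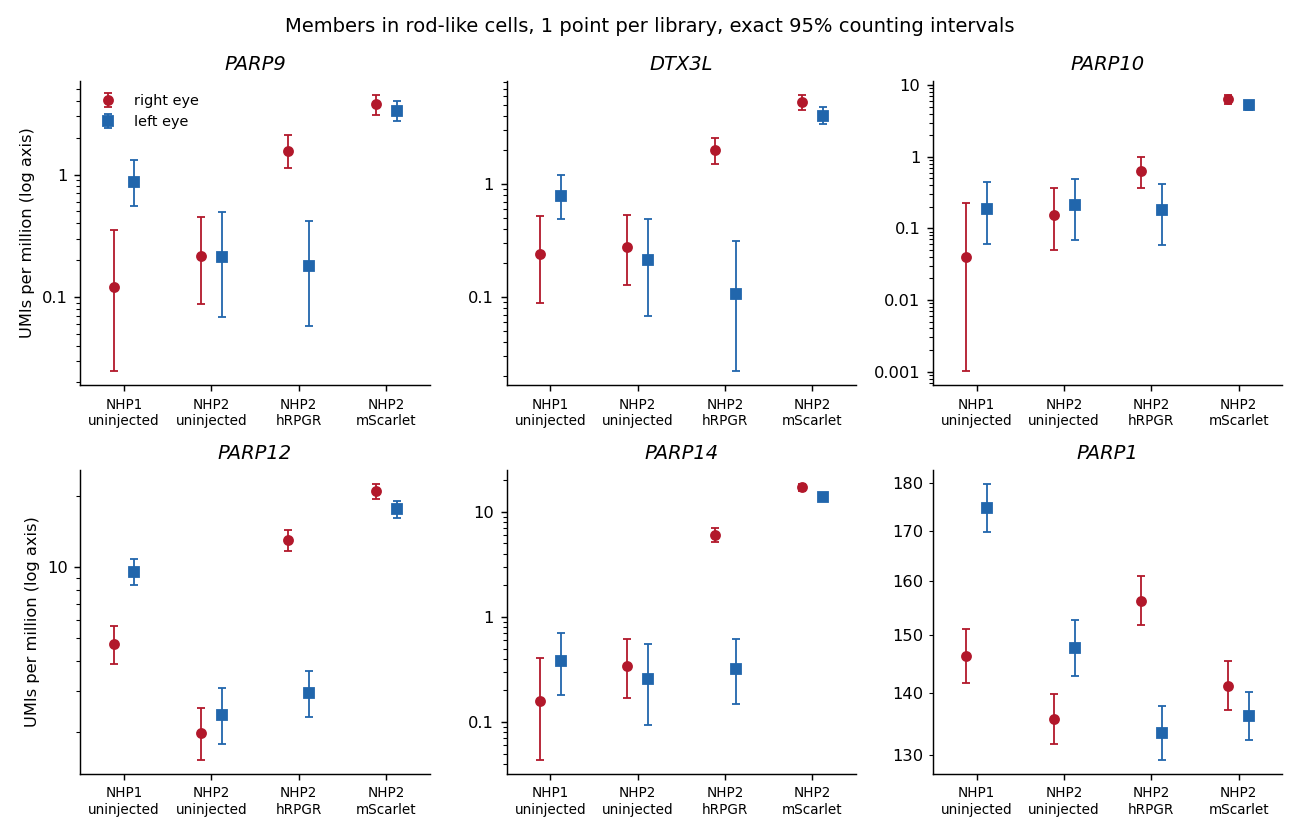
Level of each member in rod-like cells, in CPM on log axes that differ between panels, with 1 point per library (circle right eye, square left eye) and exact 95% counting intervals. The mScarlet libraries hold the highest NHP2 points of the 5 antiviral members, the 2 hRPGR points lie apart, and all PARP1 points lie between 133 and 175 CPM.

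A fit across all genes called few of these differences. PARP9, DTX3L and PARP10 entered it through the mScarlet blebs, since only 1 of the other 4 libraries reached the filter's minimum of 0.332 CPM. With edgeR's quasi-likelihood test and Benjamini-Hochberg adjustment, 1 of 6 members passed in the mScarlet blebs against the uninjected areas, where 1.60% of 14440 genes were called. That member was PARP10, a mono-ADP-ribosyltransferase (log2 fold change 4.85 ± 0.54 SE, adjusted p = 0.0285). Its call is conditional on a filter that it passed where it was high. Without the filter edgeR called it with the other 4 antiviral members, among 1311 of 21786 genes. PARP14 (5.52 ± 1.18, edgeR adjusted p = 0.0652) had a larger difference and DTX3L (4.08 ± 1.06, edgeR adjusted p = 0.0883) a smaller one, both with larger errors. PARP9 gave 3.88 ± 0.87 (edgeR adjusted p = 0.0689) and PARP12 3.01 ± 0.61 (edgeR adjusted p = 0.0620). PARP1 gave -0.16 ± 0.09 (edgeR adjusted p = 0.301). All 6 libraries share 1 estimate of the spread. The call changed between refits, for a cause that was not tested. Without the right hRPGR library edgeR called 5 of 6 members (8.94% of all genes) and without the left one also 5 of 6 (8.63%). With any mScarlet or uninjected library left out, with the eye as a replicate block, or with the unnamed rod clusters added edgeR called 0 of 6. These last refits called few genes of any kind (0 without an mScarlet or uninjected library, 4 of 14440 with the block and 28 of 15284 with the added clusters). DESeq2 called the 5 antiviral members, among 6.91% of all genes.

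The hRPGR blebs gave no call in rod-like cells. Against the uninjected areas edgeR called 0 of 6 members and 0% of all genes, and DESeq2 also called 0 members, with 80 of 21786 genes called. By edgeR 2 members had an unadjusted p under 0.05, as had 842 of 14440 genes. PARP14 (3.26 ± 1.21, edgeR adjusted p = 0.838) and PARP12 (1.76 ± 0.61, edgeR adjusted p = 0.838) had the lowest unadjusted p. These values average unlike eyes: the right-eye ratio of the hRPGR bleb to the uninjected area was 17.8 for PARP14 and 6.54 for PARP12, and the left-eye ratios were 1.26 and 1.23 with overlapping counting intervals. Without the left hRPGR library edgeR called 4 of 6 members (PARP9, DTX3L, PARP12 and PARP14), among 1.36% of all genes, with the remaining hRPGR library assumed to vary like the other groups. Between the blebs edgeR called 0 of 6 members and 0.00693% of all genes, and DESeq2 called PARP10 among 137 of 21786 genes. By edgeR 3 members (PARP9, PARP10 and PARP14) had an unadjusted p under 0.05, as had 1115 of 14440 genes. PARP10 gave 3.81 ± 0.49 (edgeR adjusted p = 0.197) for mScarlet over hRPGR. PARP9 and PARP10 had passed the filter through the mScarlet blebs, so their p is conditional on that. Left against right eye over the 3 areas, edgeR and DESeq2 each called 0 of 6 members, with 0% of all genes called by edgeR and 8 of 21786 by DESeq2. An unadjusted p under 0.05 was found for 0 members by edgeR (141 of 14440 genes) and 1 by DESeq2 (104 of 21786 genes).

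Free RNA and immune markers also differed between the areas, in part in another order than the rod-like values. In barcodes with 100 to 1000 UMIs, a measure of free RNA, PARP14 stood at 2.60 and 1.95 CPM in the uninjected areas, 8.43 and 2.83 CPM in the hRPGR blebs and 9.03 and 12.9 CPM in the mScarlet blebs (right and left). In the right hRPGR bleb free DTX3L (8.49 CPM) and PARP9 (4.08 CPM) were above the right mScarlet bleb (5.61 and 3.53 CPM), whereas the rod-like levels were below it (2.01 against 5.33 CPM for DTX3L, 1.56 against 3.73 CPM for PARP9). The free-RNA intervals of these 2 blebs were separate for DTX3L but overlapped for PARP9 (3.42 to 4.83 and 2.86 to 4.32 CPM). The rod-like PARP9 level of the mScarlet blebs (3.73 and 3.31 CPM, right and left) was near the free-RNA level in the right bleb (3.53 CPM) and below it in the left (4.88 CPM). Rod-like DTX3L was likewise near its free-RNA level in the right mScarlet bleb (5.61 CPM) and below it in the left (6.17 CPM). PARP10 and PARP12 were above theirs (free RNA 3.12 and 3.25 CPM for PARP10, 9.18 and 10.2 CPM for PARP12). Rod-like PARP14 was above its free-RNA level in the right mScarlet bleb. In the left one its counting interval overlapped that of free RNA (11.4 to 14.5 CPM). In the right uninjected area, rod-like cells held 0.217 CPM of PARP9 where free RNA held 2.64 CPM. Of the 13 myeloid markers, 12 or 13 had a UMI in the rod-like cells of each NHP2 library, with summed levels of 49.1 to 53.1 CPM in the uninjected areas, 56.4 to 71.9 CPM in the hRPGR blebs and 57.7 to 68.9 CPM in the mScarlet blebs. The 11 T/NK markers summed to 5.56 to 6.49, 7.36 to 9.25 and 7.60 to 8.33 CPM. Both lists were highest in the right hRPGR bleb. The 9 B/plasma markers summed to 73.4 to 80.5, 112 to 188 and 224 to 287 CPM, of which JCHAIN alone gave 216 and 276 CPM in the mScarlet blebs, with MS4A1, a defining B cell gene, at 0 UMIs in both. The part of free RNA and of these cells in the rod-like values was not tested.

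Bipolar-like cells, the interneurons behind the photoreceptors, gave the clearest calls. PARP14 read 16.8 and 14.5 CPM in the right and left uninjected areas, 24.6 and 18.8 CPM in the hRPGR blebs, and 41.6 and 46.2 CPM in the mScarlet blebs. PARP9 read 5.21 and 2.93, 8.97 and 5.17, and 14.7 and 16.8 CPM in the same order. DTX3L read 1.16 and 0.549, 3.59 and 1.10, and 7.64 and 6.94 CPM. For PARP14, PARP9 and PARP12 both mScarlet libraries were above the other 4, as for 10.5% of all genes tested. DTX3L had the same order but is not set against this share, since the filter on low counts let it in through the mScarlet blebs. In the mScarlet blebs against the uninjected areas, edgeR called 3 of 6 members, where 0.664% of all genes were called: PARP14 rose by 1.49 ± 0.16 (adjusted p = 0.00251) and PARP9 by 1.96 ± 0.32 (adjusted p = 0.0276), and DTX3L gave 3.07 ± 0.56 (adjusted p = 0.0442). DTX3L passed the filter through the mScarlet blebs, with 1 other library past its minimum of 1.82 CPM, so its call is conditional on that. DESeq2 called the same 3 members, among 90 of 20774 genes. PARP12 (1.97 ± 0.50, edgeR adjusted p = 0.184) and PARP10 (1.57 ± 0.62, edgeR adjusted p = 0.416) did not pass. With the eye as a replicate block PARP14 and PARP9 passed, among 53 of 12947 genes, and DTX3L did not. PARP14 alone passed without the left uninjected or the right mScarlet library, PARP14 and PARP9 passed without the right uninjected library, no member passed without the left mScarlet library, and 4 passed without either hRPGR library. The refits without the right and the left hRPGR library called 182 of 13327 and 184 of 13343 genes, and the others between 20 and 56. The hRPGR blebs against the uninjected areas gave 0 of 6 calls by edgeR (0% of all genes) and by DESeq2, with 1 member at an unadjusted p under 0.05. Between the blebs edgeR called 0 of 6 (0.0618% of all genes), and DESeq2 called PARP14 among 25 of 20774 genes. There 4 members (PARP9, DTX3L, PARP12 and PARP14) had an unadjusted p under 0.05 by edgeR. That of DTX3L is conditional on the filter, which it passed through the mScarlet blebs, and is not read. Neither count of unadjusted p is set against the share of all genes. The summed myeloid markers stood at 44.9 to 46.9 CPM in bipolar-like cells of the uninjected areas and 55.3 to 66.1 CPM in the mScarlet blebs, and the T/NK markers at 15.8 to 18.3 and 20.4 to 26.6 CPM. In free RNA of the mScarlet blebs (right and left) PARP14 stood at 9.03 and 12.9 CPM, PARP9 at 3.53 and 4.88 CPM and DTX3L at 5.61 and 6.17 CPM. Of these, bipolar-like DTX3L (7.64 and 6.94 CPM) was the nearest to its free-RNA level. The part of immune cells and of free RNA in the bipolar-like values was not tested.

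Cone-like cells had higher levels of PARP12 and PARP14 in the mScarlet blebs without an edgeR call. PARP14 read 3.79 and 1.92 CPM in the right and left uninjected areas, 2.16 and 0.260 CPM in the hRPGR blebs, and 14.7 and 15.2 CPM in the mScarlet blebs. PARP12 read 16.3 and 8.38, 18.6 and 12.2, and 31.3 and 36.0 CPM. Both genes were higher in the 2 mScarlet libraries than in the other 4, which 21.6% of all genes tested in cone-like cells also were. PARP14 was lower in the hRPGR bleb than in the uninjected area of the same eye, but from few UMIs. It had 11 UMIs in the hRPGR blebs together and 35 in the uninjected areas, and edgeR gave a log2 fold change of -1.18 ± 0.65 SE. Only 4 of the 6 members passed the filter on low counts, since DTX3L and PARP10 had at most 19 UMIs in any NHP2 library. edgeR called 0 of these 4 in the mScarlet blebs against the uninjected areas (1.42% of all genes), with 3 at an unadjusted p under 0.05, as had 1888 of 11468 genes. PARP14 gave 2.25 ± 0.47 (adjusted p = 0.0599) and PARP12 1.31 ± 0.29 (adjusted p = 0.0720). The other one, PARP9, passed the filter through the mScarlet blebs, with no other library past its minimum, and its p is not read. DESeq2 called PARP14 and PARP12, among 1.48% of all genes. The hRPGR blebs against the uninjected areas gave 0 of 4 calls (0.0174% of all genes), none at an unadjusted p under 0.05, and 0 by DESeq2. Between the blebs edgeR called 0 of 4 (0.192% of all genes), and DESeq2 called PARP14 among 62 of 19150 genes. There 3 members (PARP9, PARP12 and PARP14) had an unadjusted p under 0.05 by edgeR, as had 1158 of 11468 genes. That of PARP9 is again not read, because of the filter. The summed myeloid markers stood at 52.0 to 57.1 CPM in cone-like cells of the uninjected areas and at 65.0 to 83.8 CPM in the mScarlet blebs, and their part was not tested.

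**Figure D3:**
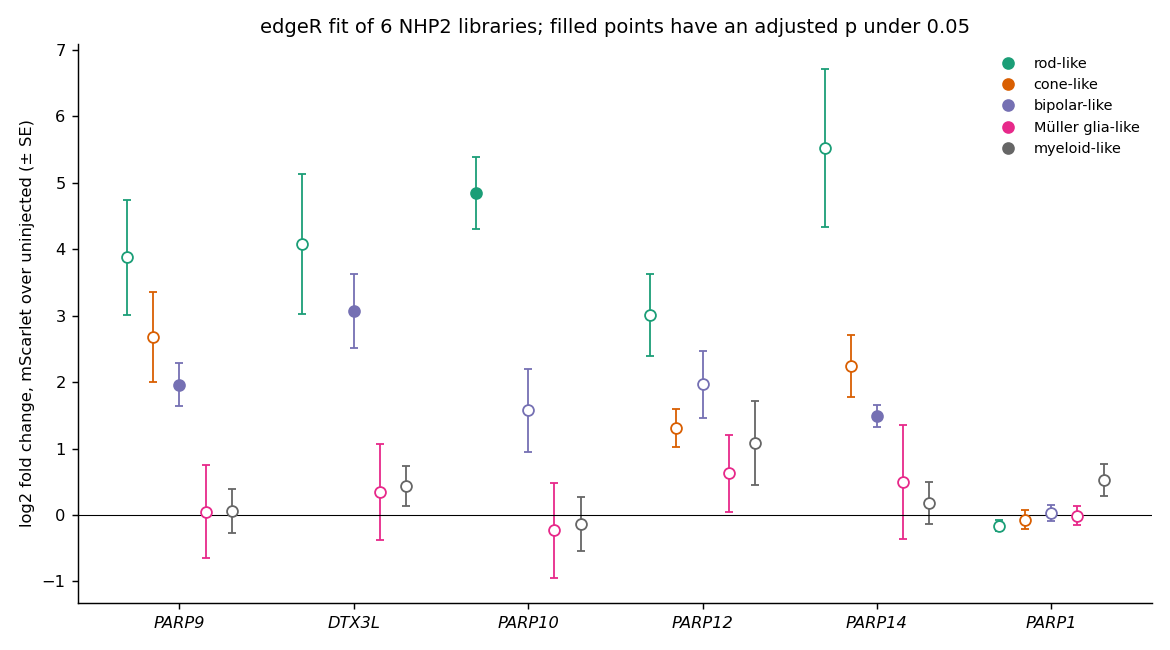
Log2 fold change of the mScarlet blebs over the uninjected areas for each member, with its SE, in 5 classes (colours), from edgeR fits of the 6 NHP2 libraries, where filled points have an adjusted p under 0.05. PARP10 in rod-like cells and PARP9, DTX3L and PARP14 in bipolar-like cells are filled, members that the filter left out are not drawn, and the PARP1 points of the 4 retinal classes lie near 0.

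Of the sparser neurons, amacrine-like cells were tested and horizontal-like cells only described. In horizontal-like cells, which relay between photoreceptors, PARP14 read 9.46 and 0 CPM in the right and left uninjected areas, 9.91 and 26.8 CPM in the hRPGR blebs, and 33.0 and 29.4 CPM in the mScarlet blebs, from 35 to 117 cells per library and with no test. PARP9 in the same cells read 8.60 and 1.47, 8.92 and 25.2, and 36.6 and 32.4 CPM. For both genes the left hRPGR bleb was above the right one, the reverse of the order in rod-like cells. This rests on 26 UMIs of PARP14 and 24 of PARP9 over both hRPGR blebs. The other antiviral members differed less between these blebs, at 15.5 ± 0.54 CPM for DTX3L, 12.7 ± 1.08 CPM for PARP12 and 5.34 ± 1.94 CPM for PARP10 (SD, n = 2). In amacrine-like cells 3 of 6 members passed the filter, and edgeR called 0 of 3 both for mScarlet (0.0458% of all genes) and for hRPGR (0% of all genes) against the uninjected areas, as did DESeq2 with 0 members. PARP14 there read 2.01 and 1.03 CPM (uninjected), 1.51 and 5.44 CPM (hRPGR) and 16.0 and 9.77 CPM (mScarlet), from 3, 7 and 33 UMIs in all, so it too passed the filter through the mScarlet blebs, and its unadjusted p, the 1 under 0.05 among the members there, is not read. For hRPGR no member had an unadjusted p under 0.05.

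Müller glia-like cells, the radial glia of the retina, split by eye more than by area. In the right eye PARP9 and PARP10 were lower in the mScarlet bleb than in the uninjected area with separate counting intervals, and for DTX3L, PARP12 and PARP14 the intervals of the 3 areas overlapped. In the left eye all 5 antiviral members were lowest in the uninjected area and highest in the mScarlet bleb, an order that 27.8% of all genes tested shared. PARP14 read 86.6 CPM (78.4 to 95.3), 87.6 CPM (79.8 to 96.0) and 73.3 CPM (66.1 to 81.0) in the uninjected area, hRPGR bleb and mScarlet bleb of the right eye. In the left eye it read 11.2 CPM (9.11 to 13.6), 26.7 CPM (22.6 to 31.4) and 68.4 CPM (61.5 to 75.9). The counting intervals of the 3 left areas did not overlap, and the 2 uninjected areas of this animal differed by more than any 2 blebs.

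PARP10 had the largest right-eye decline, with 93.5, 78.0 and 57.0 CPM in the uninjected area, hRPGR bleb and mScarlet bleb, against 20.3, 26.4 and 43.6 CPM in the left eye. PARP9 read 83.4, 62.8 and 59.5 CPM in the right eye and 15.6, 28.2 and 45.9 CPM in the left. DTX3L read 76.1, 74.4 and 65.1 CPM in the right eye and 14.3, 28.3 and 52.5 CPM in the left. For PARP12 the right-eye values were level at 26.8, 25.9 and 26.6 CPM, and the left-eye values were 6.79, 13.2 and 25.4 CPM. Against these, PARP1 stayed between 55.1 and 70.5 CPM in all 6 libraries. The group comparisons, which average the eyes, gave 0 of 6 calls by edgeR and by DESeq2 and no unadjusted p under 0.05, for mScarlet against uninjected (0.538% of all genes), hRPGR against uninjected (0.0156%) and mScarlet against hRPGR (0.00780%). The mScarlet against uninjected log2 fold changes ran from -0.23 ± 0.71 for PARP10 to 0.63 ± 0.58 for PARP12, with an SE of 0.58 to 0.85 for the 5 antiviral members. Without the left uninjected library the fold changes of PARP9, DTX3L, PARP12 and PARP14 changed sign, and without the right one PARP12 was called, among 660 of 13321 genes, and that of PARP10 changed sign. The summed myeloid markers in Müller glia-like cells were 83.8 and 70.4 CPM in the uninjected areas (right and left), 110 and 102 CPM in the hRPGR blebs and 95.9 and 131 CPM in the mScarlet blebs. The coRPGR level in the same cells was 33.7 CPM in the right and 0 in the left uninjected area, and 449.6 and 190 CPM in the right and left hRPGR blebs. The part of myeloid cells and of transgene RNA was not tested.

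**Figure D4:**
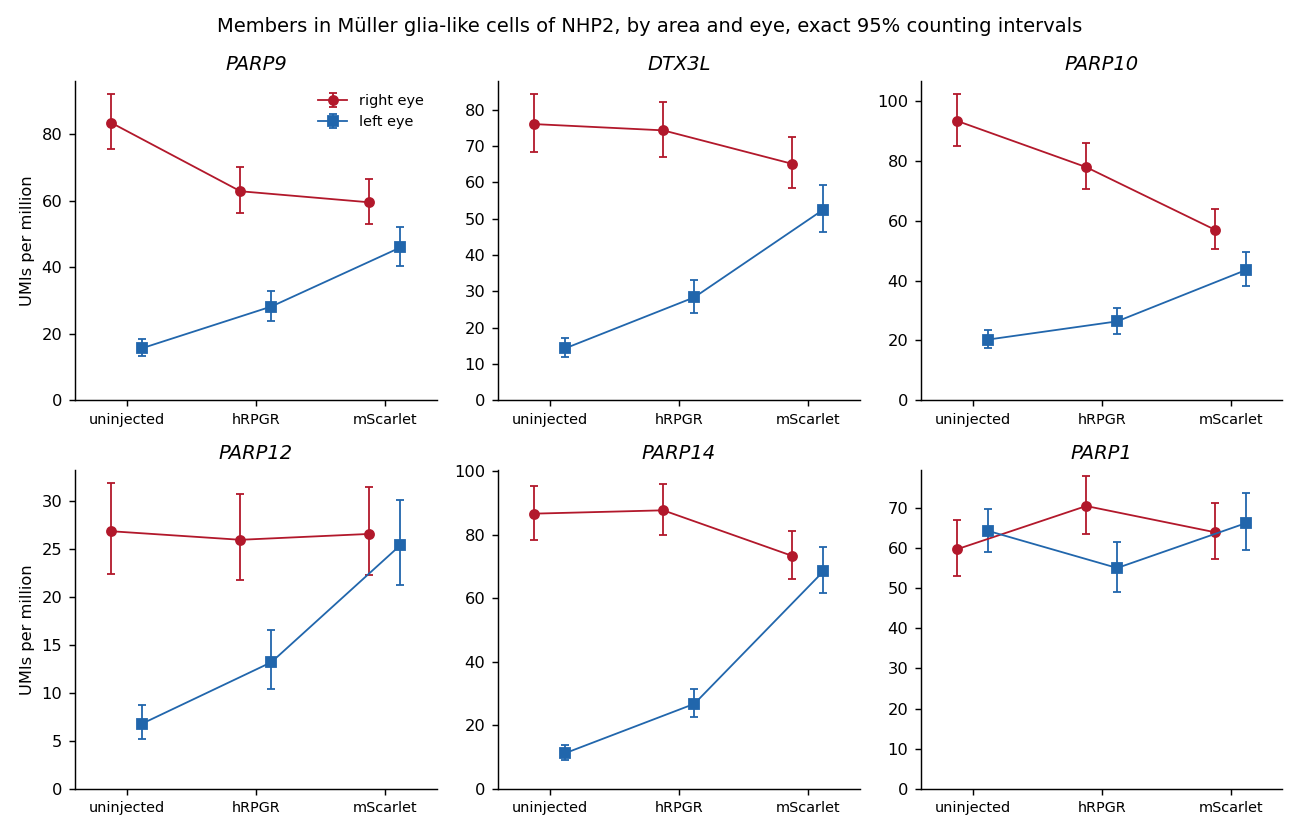
Level of each member in Müller glia-like cells of NHP2 by area (x axis), in CPM from 0, with lines joining the 3 areas of the right eye (red circles) and of the left eye (blue squares) and exact 95% counting intervals. The right-eye lines of the 5 antiviral members are level or fall from left to right, the left-eye lines climb (PARP14 from 11.2 to 68.4 CPM), and the PARP1 lines cross.

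Immune cells carried the antiviral members in every area. In myeloid-like cells PARP14 read 229 and 123 CPM in the right and left uninjected areas, 167 and 136 CPM in the hRPGR blebs, and 213 and 172 CPM in the mScarlet blebs, so the areas overlapped and the right eye was higher in each. DTX3L read 79.6 and 53.7, 78.1 and 52.0, and 98.1 and 75.2 CPM. PARP9 read 72.0 and 49.7, 68.2 and 43.2, and 73.7 and 48.6 CPM, again with the right eye above the left in each area, which held for 11.2% of all genes tested. PARP12 read 24.6 and 11.9, 44.7 and 9.81, and 44.1 and 30.9 CPM, with both mScarlet blebs above both uninjected areas, as for 22.6% of all genes tested. edgeR called 0 of 6 members for mScarlet against uninjected (1.87% of all genes) and 0 of 6 for hRPGR against uninjected (0% of all genes), with no unadjusted p under 0.05, and DESeq2 called none. The myeloid-like class held 80 and 75 cells in the uninjected areas (right and left) and 474 and 408 in the mScarlet blebs. In T/NK-like cells, at 24 and 36 cells in the uninjected areas, PARP14 ran from 84.0 to 184 CPM over the 6 libraries without a test.

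PARP1 differed little between areas in any retinal class. In rod-like cells it read 136 and 148 CPM in the right and left uninjected areas, 156 and 133 CPM in the hRPGR blebs, and 141 and 136 CPM in the mScarlet blebs. In cone-like cells it read 348 and 283, 314 and 335, and 340 and 313 CPM. The areas overlapped in both classes. The mScarlet over uninjected log2 fold changes were -0.16 ± 0.09 in rod-like, -0.07 ± 0.14 in cone-like, 0.03 ± 0.12 in bipolar-like and -0.01 ± 0.14 in Müller glia-like cells (edgeR adjusted p of 0.301, 0.867, 0.949 and 0.985). In myeloid-like cells it read 37.9 and 45.8 CPM in the uninjected areas, 67.4 CPM in the right and 51 UMIs (37.2 to 65.8 CPM) in the left hRPGR bleb, and 57.6 and 57.3 CPM in the mScarlet blebs, without a call.

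The members were also compared between rod-like cells of 1 bleb with and without a UMI of the delivered transgene. Cells with at least 3000 UMIs were reduced at random to 3000, and cells with fewer were left out. In the mScarlet bleb of the right eye PARP14 stood at 16.1 CPM (13.2 to 19.5) in 2215 cells with a mScarlet UMI and 19.3 CPM (16.1 to 22.9) in 2197 cells without one. In the left eye it stood at 14.9 CPM (12.1 to 18.2) in 2145 cells and 12.9 CPM (10.6 to 15.6) in 2767 cells. Within each eye these PARP14 intervals overlapped. Every member had UMIs in mScarlet-bleb cells both with and without a mScarlet UMI. Only mScarlet defined that split, although rod-like cells from the right bleb also held 826 coRPGR UMIs (26.4 CPM). In the left hRPGR bleb 1354 thinned cells lacked a coRPGR UMI and held 0 UMIs of PARP9, PARP10 and PARP14. The 2647 cells with one held 2, 3 and 3. Over the 4 injected libraries the mean difference, cells with minus cells without, was 0.774 CPM for PARP14, 0.260 CPM for PARP9, -0.360 CPM for DTX3L, 0.540 CPM for PARP10, 2.93 CPM for PARP12 and -2.38 CPM for PARP1. PARP12 was higher in cells with the transgene in 4 of 4 libraries, but in 3 of 4 at 2000 UMIs, where its mean difference was -0.875 CPM, and in 3 of 4 without thinning. An exact two-sided sign-flip permutation test gave p = 0.625 for PARP9, DTX3L, PARP14 and PARP1, 0.375 for PARP10 and 0.13 for PARP12, where 0.13 is the smallest p that 4 libraries allow, so this comparison could not pass. In the right hRPGR bleb 4156 of the thinned cells held a coRPGR UMI and 119 did not, which leaves the second group with 0 to 3 UMIs of each antiviral member.

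The levels of PARP9 and DTX3L, whose starts overlap in the annotation, resembled each other most closely. Over 58 sums of a class in a library with at least 50 cells, the Pearson correlation of log2(CPM + 1) was 0.951, and among 11738 genes considered DTX3L ranked first for PARP9 and PARP9 first for DTX3L. IFI44 (0.925), an interferon-stimulated gene, and ZNFX1 (0.911), an RNA sensor, came next for PARP9, and IFI44 (0.917) and CSF1 (0.908), a growth factor of macrophages, for DTX3L. PARP14 was most like PARP9 (0.904), DTX3L (0.90) and IFI44 (0.892). PARP10 was most like the interferon-stimulated genes OAS3 (0.942), IFIT3 (0.923) and IFIT2 (0.906), and PARP12 like STAT2 (0.836), ZC3HAV1 (0.805) and ISG15 (0.762). PARP1 was most like USP10 (0.941), AKAP9 (0.929) and ATR (0.923), and its correlation with PARP9 was -0.485. The 58 points are not independent, since they share libraries, eyes, free RNA and cell classes, and the correlations are a description.

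**Figure D5:**
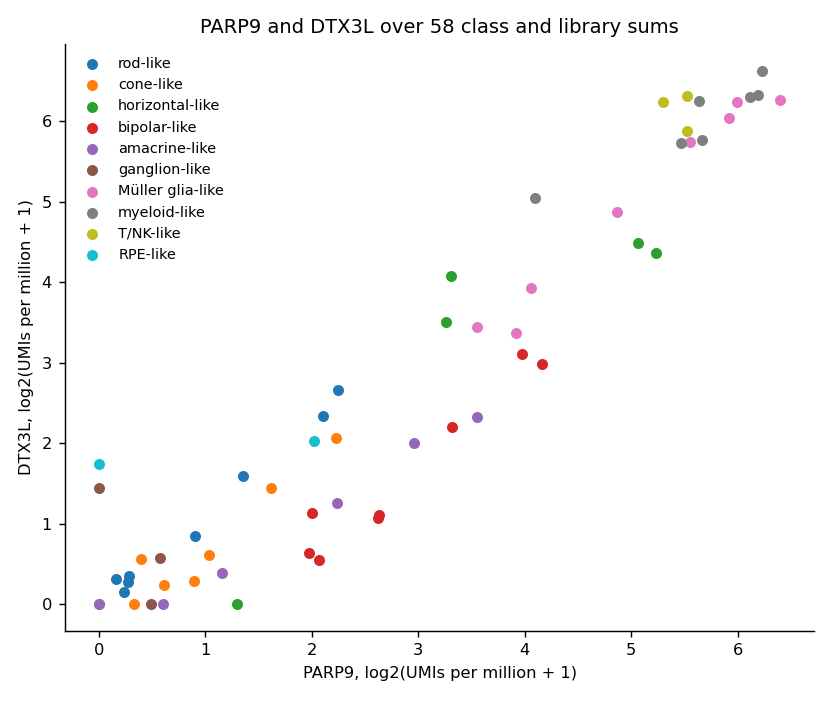
DTX3L against PARP9, both as log2(CPM + 1), with 1 point for each of 58 sums of a cell class (colour) in a library with at least 50 cells, NHP1 included. The points follow 1 line from rod-like and cone-like cells near 0 to Müller glia-like and myeloid-like cells near 6, and at a similar PARP9 level bipolar-like points lie lower than rod-like ones.

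The wider ADP-ribose machinery was searched with fixed lists in the mScarlet against uninjected comparison. Of 12 other PARP genes, 10 were tested in rod-like cells and none was called, with log2 fold changes from -0.62 (PARP8) to 1.27 (ZC3HAV1, the zinc-finger antiviral protein) and a median of 0.28 against 0.01 over all genes. None was called in cone-like (10 tested), bipolar-like (10), Müller glia-like (12), amacrine-like (10) or myeloid-like cells (11) either. The readers and erasers of ADP-ribose, such as PARG and MACROD1, gave 0 calls of 9 tested in rod-like cells and a median of 0.04, and DTX1, DTX2, DTX3 and DTX4, the other deltex ligases, gave 0 calls of 4 and a median of -0.13. The partners of PARP1 in repair, such as XRCC1 and HPF1, gave 0 calls of 8 and a median of 0.02. The genes of NAD supply and use, such as NAMPT, gave 0 calls of 7 and a median of 0.18, with values from -1.04 to 0.42. In the other 5 classes these 4 lists also gave no call, although the NAD genes ran from -0.35 to 7.55 in Müller glia-like cells (median 0.17). The interferon signal genes gave the list calls: IRF1 and IRF7, transcription factors of the interferon response, rose in rod-like cells (2.95 and 2.77, edgeR adjusted p = 0.0378 for both), in cone-like cells (3.36 and 2.47) and in bipolar-like cells (3.25 and 2.67), and the receptor chain IFNAR2 rose in bipolar-like cells (1.04, edgeR adjusted p = 0.00702). Of the 12 genes tested, 2, 2 and 3 rose in these classes, where 1.60%, 1.42% and 0.664% of all genes were called. In the list 0 fell, and the medians were 0.89, 0.33 and 0.59. In cone-like cells IRF7 passed the filter through the mScarlet blebs, with 1 other library past the minimum, so its call there is conditional on that. The rod-like list calls were lost, as were those of all other genes, whenever an mScarlet or uninjected library was left out. In Müller glia-like cells IRF1 alone rose (2.57, edgeR adjusted p = 0.0247), with 0 calls in amacrine-like and myeloid-like cells. The hRPGR against uninjected comparison gave no call in any list and class.

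In the NHP1 libraries, which were not tested against NHP2, the antiviral members were low in Müller glia-like cells, with PARP14 at 9.60 and 15.7 CPM and PARP9 at 14.1 and 10.7 CPM (right and left), near the left uninjected area of NHP2. In rod-like cells PARP14 read 0.160 and 0.379 CPM, near the uninjected areas of NHP2. PARP12 read 4.72 and 9.51 CPM there, above both uninjected areas of NHP2. PARP9 read 0.12 and 0.871 CPM and DTX3L 0.240 and 0.796 CPM, so that the left library, but not the right one, was above both uninjected areas of NHP2 for these genes. The left library, the higher one for all 4, held 16197 huRPE65 UMIs in rod-like cells, against 1 UMI in the right one. PARP1 stood at 146 and 175 CPM in the same cells.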

How the data were processed

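Single-cell suspensions of retina were sequenced from 8 libraries, and the authors deposited unfiltered UMI counts per gene and barcode, made with Cell Ranger 8.0.1 (from the matrix headers) against Mmul_10 with the transgenes added. The strand setting of the counting was not given in the sources used here. Of the 26533 features, 16681 carried a symbol and 564 more were named through a gene table. A barcode counted as a cell from 1500 UMIs and 300 genes upwards if no more than 20 percent of its UMIs were mitochondrial, and doublets were removed at a rate of 0.8 percent per 1000 cells. Cells were clustered with scanpy 1.11.5 and igraph 0.11.9 (3000 variable genes, 40 components, resolution 2) without the members, and a cluster was named from marker lists when at least 3 markers and its leading genes allowed it. Between 14.1% and 49.7% of the cells per library stayed unnamed, mostly in clusters whose best class was rod. These unnamed rod-best cells were unevenly spread over NHP2. Their share of cells was 23.1% (right) and 38.5% (left) for uninjected retina, 26.6% and 23.2% for hRPGR, but 9.84% and 8.2% for mScarlet. Comparisons of rod-like cells between areas therefore rest on unequally selected rods.

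Counts were summed per class and library, and the 6 NHP2 libraries were fitted per class with edgeR 4.0.16 (quasi-likelihood, TMM, filter on low counts, R 4.3.3), with Benjamini-Hochberg adjustment over all genes tested and a threshold of 0.05. DESeq2 1.42.0 was an alternative, as were its size factors, no filter, kept doublets, a minimum of 3000 UMIs, the eye as a block and the omission of each library. The SE beside an edgeR log2 fold change was derived from the test, as the absolute fold change divided by the square root of its F statistic. P-values measure the spread between areas and eyes of 1 animal. Same-numbered samples come from the same eye, which is where the pairing comes from; the left minus right differences of 2 areas correlated across genes at -0.41, 0.27 and -0.24 in rod-like cells. The members and lists were chosen with earlier results of these data known. All 6 members are named in every class, other genes only from the lists and as the 3 genes most like each member. RefSeq coordinates and sequences are of Mmul_10.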

Additional observations from a re-analysis of the deposited data

Results flagged for a closer look

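In Müller glia-like cells of NHP2 the eyes moved in opposite directions, with separate counting intervals in each eye, for PARP9 and PARP10. DTX3L, PARP12 and PARP14 also had right-eye ratios of the mScarlet bleb to the uninjected area below 1 and left-eye ratios above 1, with overlapping intervals in the right eye. The mScarlet bleb to uninjected area ratio of PARP9 was 0.713 (right eye) and 2.94 (left eye), and that of PARP10 was 0.610 and 2.15. The hRPGR bleb to uninjected area ratio of PARP9 was 0.753 on the right and 1.80 on the left. The mScarlet to hRPGR bleb ratio of PARP10 was 0.730 on the right and 1.65 on the left. PARP1 also differed in direction between the eyes for the hRPGR bleb over the uninjected area, at 1.15 (right) and 0.903 (left) in rod-like cells and at 0.902 and 1.19 in cone-like cells. With 1 library per area and eye, none of these differences between eyes was tested.

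Barcodes below the cell threshold also carried the members. The lower of the 2 mScarlet blebs held 5.61 CPM of DTX3L in free RNA against at most 3.79 CPM in the uninjected areas, 9.18 CPM of PARP12 against at most 2.10 CPM, and 9.03 CPM of PARP14 against at most 2.60 CPM. The right hRPGR bleb held 8.49, 7.74 and 8.43 CPM of these genes, which for DTX3L was the highest of all libraries, and the left one held 1.64, 2.70 and 2.83 CPM.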

How the results depend on the processing

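Of 208 alternatives for the number of members called, 169 left it the same or changed it little. A change in bipolar-like cells from 3 to 2 or to 4 was counted as little. For mScarlet against uninjected, no filter on low counts gave 5 calls in rod-like, 4 in cone-like, 5 in bipolar-like, 1 in amacrine-like and 1 in myeloid-like cells (among 1311 of 21786, 1062 of 19150, 539 of 20774, 126 of 19081 and 1022 of 18286 genes called), DESeq2 gave 5 (rod-like) and 2 (cone-like), and keeping doublets gave 3 in cone-like cells (among 208 of 11880 genes called). For mScarlet against hRPGR, no filter gave 1, 3 and 5 calls in rod-like, cone-like and bipolar-like cells (among 94, 341 and 359 genes called), DESeq2 gave 1 in each, and keeping doublets gave 1 in cone-like and 1 in bipolar-like cells (among 23 and 15 genes called). With the eye as a replicate block, 0 rod-like and 2 bipolar-like calls were made for mScarlet against uninjected, and the block changed no other count of members called. Adding the unnamed rod clusters, a choice made after seeing the data, gave 0 calls in rod-like cells. Leaving out each library gave 0 to 5 calls in rod-like, 0 to 2 in cone-like, 0 to 4 in bipolar-like and 0 to 1 in Müller glia-like cells for mScarlet against uninjected, 0 to 4 in rod-like cells for hRPGR against uninjected, and 0 to 5, 0 to 1 and 0 to 2 in rod-like, cone-like and bipolar-like cells for mScarlet against hRPGR. The genes called in these refits numbered 0 to 1341, 24 to 302, 20 to 184 and 1 to 660, then 0 to 205, then 0 to 124, 8 to 48 and 1 to 81. In every such refit with 1 library left in a group, that library is assumed to vary like the others.

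Of 399 alternatives for reported log2 fold changes, 17 changed sign, 43 passed the threshold where the reported value had not, and 15 no longer passed. Leaving out each library in turn, the hRPGR against uninjected values in rod-like cells ran from -1.23 to 2.84 for DTX3L, from -0.30 to 2.69 for PARP9 and from -0.052 to 1.62 for PARP10, each lowest without the right and highest without the left hRPGR library. For mScarlet against uninjected in Müller glia-like cells they ran from -0.74 to 1.68 for PARP9, -0.45 to 1.97 for DTX3L, -0.37 to 2.59 for PARP14, -0.13 to 1.86 for PARP12 and -0.98 to 1.24 for PARP10, each lowest without the left and highest without the right uninjected library. The replicate block turned PARP10 there to 0.092. PARP1 in the same comparison ran from -0.057 to 0.045 in Müller glia-like and from -0.22 to 0.097 in cone-like cells, and gave 0.043 with doublets kept and 0.036 from cells of at least 3000 UMIs in Müller glia-like cells, and -0.052 with doublets kept in bipolar-like cells. The differences between cells with and without a transgene UMI changed sign for PARP12 at 2000 UMIs per cell (-0.875 CPM) and for PARP1 at 2000 UMIs (2.06 CPM) and without thinning (16.7 CPM). The cause of these changes was not tested. Few UMIs limit the rod-like levels of the antiviral members in the uninjected areas and the left hRPGR bleb.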
